A study of Mus musculus with 5 samples.

Results

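The genes described here are 59 genes of the actin cytoskeleton and of podosomes, measured in the mouse macrophage-like line RAW264.7, whose cells can be turned into osteoclast-like cells. They were taken by symbol from a list of 59 names, and all 59 were found with a value among the 16003 genes of the expression table. The CD137 cells carried Renilla luciferase together with mouse Cd137 (gene symbol Tnfrsf9), a TNF receptor family member that co-stimulates immune cells, and the control cells carried Renilla luciferase alone, so both groups share the luciferase. The series has 3 CD137 samples and 2 control samples, and the table used here holds CD137 replicates 2 and 3 and control replicate 2; the other 2 samples were not analysed here. The labels do not say whether either line is 1 clone or whether the replicates are separate cultures. Levels are FPKM, which divide the fragments of a gene by transcript length and by library total, so they can be compared between genes.

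Actin monomers assemble into polar filaments that macrophages use to crawl and to engulf particles. Profilin, cofilin and the thymosins control the pool of monomers, the Arp2/3 complex and formins start new filaments, and capping, bundling and cross-linking proteins shape them. Macrophages and osteoclasts also build podosomes, adhesion structures with an Arp2/3-rich actin core and a ring of talin, vinculin and paxillin, and in osteoclasts podosomes gather into the sealing zone under which bone is resorbed. The series concerns the migration and osteoclast differentiation of these cells, and the comparison asks how the expression of this machinery differs when Cd137 is introduced.

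Tnfrsf9 itself was at 364 and 370 FPKM in the CD137 libraries, against 5.06 FPKM in the control library. Macrophage markers were abundant in every library, summing to 1874 and 1917 FPKM over 8 genes in CD137 replicates 2 and 3 and to 3077 FPKM in the control, with Lyz2, lysozyme, at 646 and 669 FPKM in CD137 cells and 1693 FPKM in control cells. Of these 8 markers 4 fell (50%), 3 rose (37.5%) and 1 did not pass in the test described below. In that test 18.2% of all expressed genes fell and 24.4% rose. Lyz2, Csf1r, Cd14 and Cd68 fell, to 0.39, 0.77, 0.78 and 0.87 of the control. Itgam, Adgre1 and Ptprc rose, to 1.38, 1.33 and 1.32 of the control, and Spi1 did not pass. The 4 T and B lymphocyte markers had no value in the table, and fibroblast and smooth muscle markers summed to at most 1.2 FPKM in any library. The 4 epithelial markers (Krt8, Krt18, Epcam and Cdh1) summed to 6.28 FPKM in CD137 replicate 2, against 1.17 FPKM in CD137 replicate 3 and 0.67 FPKM in the control. Since the table holds 1 control library, all replicate error stems from the pair of CD137 libraries, and the test takes the control to be as variable. P-values thus reflect variation among these libraries only, and that variation may be technical.

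Many abundant genes of the core actin machinery were lower in CD137 cells, while a smaller number, led by Avil, were higher. Of the 59 genes, 53 reached 1 FPKM in some library and were tested; the other 6 stayed below that level in all 3. Among the 53, 26 fell, 9 rose and 18 did not pass. The test was limma over expressed genes with an adjusted p under 0.05, and "rose" and "fell" are used here of genes that passed it. These calls depend on restricting the fit to expressed genes: over all 16003 genes with a value, limma called 0 members and 0 genes, the smallest adjusted p was 0.0802, and 33 of the 53 had an unadjusted p under 0.05. The restricted fit was used with that outcome already known. In the restricted fit 18.2% of all 10720 expressed genes were lower and 24.4% were higher, 42.6% in either direction. The share that fell among the actin genes, 49.1%, was thus above the share of all genes that fell. The share that rose, 17.0%, was below the share of all genes that rose. Counts by role given below rest on 2 to 9 expressed genes each and are to be read beside the 18.2% and 24.4% of all expressed genes. The median log2 fold change, on the log2(FPKM + 1) scale, was -0.12 over the 53 genes and 0.03 over all expressed genes.

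A decrease of at least 0.32 on the log2 scale was found for 18 of the 53 genes and for 11.4% of expressed genes, and an increase of that size for 4 of the 53 and for 16.2% of expressed genes. The control lay above both CD137 libraries for 36 of the 53 genes (40.2% of expressed genes), below both for 13 (49.0%) and between them for 4. Calls were more frequent among abundant genes, 60.0% in either direction for the 735 genes with a mean of 100 FPKM or more. Of the 24 actin genes at that level 12 fell and 2 rose, whereas 30.3% of the 735 genes fell and 29.7% rose. Bulk RNA does not tell apart fewer cells expressing a gene from less RNA in each cell. In the GENCODE annotation 16 of the 59 genes share exonic bases with another protein-coding gene, and how reads of those stretches were counted is not known.

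**Figure D1:**
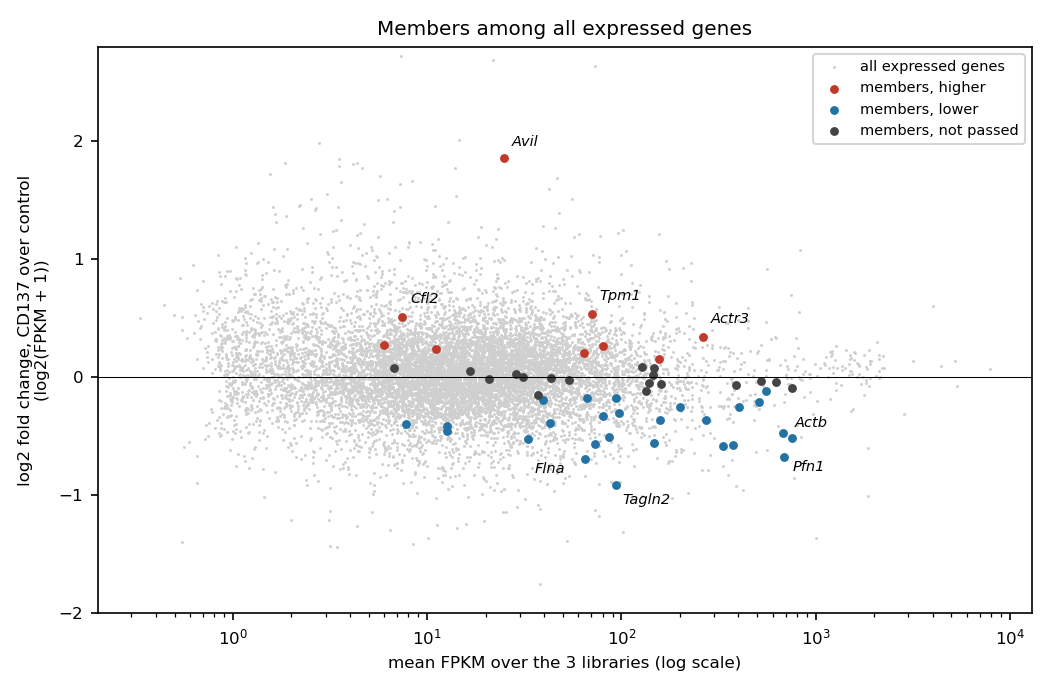
Log2 fold change of CD137 cells over control cells, on the log2(FPKM + 1) scale, against the mean FPKM of the 3 libraries (log axis) for all 10720 expressed genes (grey) and the 53 actin genes (coloured by call). Blue points, the 26 genes that fell, reach into the most abundant range with Actb and Pfn1, and Avil is the highest coloured point; 3 genes lie outside the axis range.

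Both cytoplasmic actins were lower in CD137 cells. Actb, which encodes beta-actin (chromosome 5 from 142903115 to 142906754, mm10), was at 599 and 600 FPKM in CD137 replicates 2 and 3, against 830 FPKM in the control. Actg1, which encodes gamma-actin (chromosome 11 from 120345687 to 120348495), was at 282 and 288 FPKM in the CD137 libraries, against 427 FPKM in the control. For both genes the CD137 libraries lay close together and well under the control. The log2 fold change was -0.47 ± 0.03 for Actb and -0.58 ± 0.03 for Actg1 (SE; limma adjusted p = 0.00113 and 0.00100). Together the actins made up 881 and 887 FPKM in CD137 cells and 1257 FPKM in control cells, 0.703 of the control. Gamma-actin kept nearly the same share of that sum, 32.0% and 32.4% in CD137 cells and 34.0% in control cells. The coding sequences of these genes are very alike, so reads of the shared stretches could be assigned to either gene.

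Serum response factor (SRF) is the transcription factor best known for driving actin genes, through a promoter element called the CArG box. Promoters (250 bases before to 50 after the start) were found in RefSeq's GRCm38.p6 table for 52 of the 59 genes. The other 7, Actb, Pxn, Cttn, Ptk2b, Marcks, Coro1b and Diaph1, had no entry and were not searched, so their absence below says nothing about a box. Searched on both strands, on which this pattern reads alike, the CArG box was present in 6 of the 52 (11.5%). It was present in 1.40% of the expressed genes with a promoter and in 1.81% of all genes with one. The 52 include members below 1 FPKM, so the share of expressed genes is not a like set. Of the expressed members with a promoter, 4 had a box and 44 did not. RefSeq lists several starts for some genes, and a box at any of them was counted; at the most upstream start alone it was present in 5 of the 52 (9.62%) and in 1.19% of the expressed genes. The stretches around the box are shown because these 6 genes share the element; capitals mark the box, and each sequence runs 5′ to 3′ on the gene's strand and ends before the start site.
Actg1 (chr11:120348551-120348610, minus strand): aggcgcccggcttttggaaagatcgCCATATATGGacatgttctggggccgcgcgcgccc
Vcl (chr14:20929148-20929205, plus strand): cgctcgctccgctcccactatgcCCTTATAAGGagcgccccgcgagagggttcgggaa
Myl6 (chr10:128493025-128493084, minus strand): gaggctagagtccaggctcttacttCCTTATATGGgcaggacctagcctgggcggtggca
Arpc4 (chr6:113377863-113377897, plus strand): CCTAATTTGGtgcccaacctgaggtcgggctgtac
Myl9 (chr2:156775278-156775337, plus strand): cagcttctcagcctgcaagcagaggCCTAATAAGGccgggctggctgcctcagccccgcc
Vil1 (chr1:74409286-74409345, plus strand): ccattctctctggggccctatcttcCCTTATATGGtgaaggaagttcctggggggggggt
The box begins between 50 bases (Myl6) and 250 bases (Arpc4) before the RefSeq start used. Myl6 has 2 such starts, and its box lies before the downstream one, 827 bases inside the gene as the expression table places it; the other 5 boxes lie before the table's start too. Myl9 and Vil1 were below 1 FPKM, and the other 4 genes, Actg1, Vcl, Myl6 and Arpc4, all fell in CD137 cells, Arpc4 not without the variance trend (adjusted p = 0.0989). Of the 44 expressed members with a promoter but no box, 20 fell, 8 rose and 16 did not pass. A match is a description of the letters in this window and not evidence of binding.

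Srf itself and its cofactor gene Mkl1 did not pass. Srf was at 16.1 and 17.7 FPKM in CD137 cells, against 18.3 FPKM in control cells (adjusted p = 0.278). Mkl1, the myocardin-related cofactor that senses free actin monomers, was at 17.5 and 19.0 FPKM in CD137 cells, against 20.98 FPKM in control cells (adjusted p = 0.0760). In the list of SRF, its cofactors and textbook targets outside the 59, 1 of 7 expressed genes rose (14.3%) and 0 fell. Among all expressed genes 24.4% rose and 18.2% fell. The 7 were Srf, Mkl1, Mkl2, Elk1, Elk4, Egr1 and Fos, of which Egr1 and Fos are the targets. The targets Acta2, Tagln, Cnn2 and Fhl2 were below 1 FPKM and were not tested, so the counts say nothing of them. The gene that rose was Fos, an immediate-early transcription factor, at 3.29-fold.

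The Arp2/3 complex, which nucleates branched filaments, had a summed level of 0.955 of the control. Of its 8 genes 3 fell, 1 rose and 4 did not pass. Arpc2, the most abundant subunit gene, was at 611 and 625 FPKM in CD137 cells, against 636 FPKM in control cells, and did not pass. Arpc3 had the largest decrease, with 149 and 140 FPKM in CD137 cells, against 186 FPKM in control cells (log2 fold change -0.36 ± 0.05, adjusted p = 0.00542). Arpc1b and Arpc4 also fell, to 0.867 and 0.885 of the control, but neither passed when limma was run without a variance trend (adjusted p = 0.0698 and 0.0989). Actr3, which encodes the actin-related protein Arp3, went the other way, at 286 and 280 FPKM in CD137 cells, against 223 FPKM in control cells (log2 fold change 0.34 ± 0.03, adjusted p = 0.00260). Its partner Actr2 was at 147 and 146 FPKM in CD137 cells, against 144 FPKM in control cells, and did not pass. The subunits thus did not move together: Actr3 lay above the control in both CD137 libraries, and Arpc3, Arpc1b and Arpc4 lay below it in both. Arpc5 and Arpc1a had ratios of 0.925 and 1.005 and did not pass.

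Of 9 expressed genes that switch on filament nucleation or elongation, 4 fell, 2 rose and 3 did not pass. Without the variance trend 2 fell, Hcls1 and Evl, and 0 rose: Diaph2 (adjusted p = 0.0509), Vasp (0.102), Was (0.0674) and Fmnl1 (0.0843) no longer passed. Hcls1, which encodes HS1, the cortactin relative of blood cells, was at 75.1 and 76.1 FPKM in CD137 cells, against 108 FPKM in control cells (log2 fold change -0.50 ± 0.04, adjusted p = 0.00159). Evl, an Ena/VASP protein that protects growing filament ends, was at 11.2 and 11.3 FPKM in CD137 cells, against 15.3 FPKM in control cells (adjusted p = 0.00618). Was, the Arp2/3 activator of blood cells that is needed for macrophage podosomes, fell to 0.874 of the control, and the leukocyte formin Fmnl1 fell to 0.885. Vasp, the most abundant gene of this class and the closest relative of Evl, rose, with 159 and 163 FPKM in CD137 cells, against 144 FPKM in control cells (log2 fold change 0.16 ± 0.04, adjusted p = 0.0273). Diaph2, a diaphanous-related formin, was at 6.65 and 6.18 FPKM in CD137 cells, against 5.13 FPKM in control cells, and only just passed (adjusted p = 0.0492). Wasf2, the WAVE2 subunit that links Rac to Arp2/3, was at 0.983 of the control, Wasl (N-WASP) at 1.07 and the formin Diaph1 at 0.991, and none of these 3 passed.

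Genes of monomer binding and filament turnover were mostly lower, with a summed level of 0.727 of the control. Of 9 genes 6 fell, 2 rose and 1 did not pass. Pfn1, the profilin that reloads monomers with ATP (chromosome 11 from 70651847 to 70654650), was at 549 and 598 FPKM in CD137 cells, against 916 FPKM in control cells (log2 fold change -0.68 ± 0.06, adjusted p = 0.00182). Its CD137 libraries were further apart than those of most members, and in the authors' deposited table it is 1 of 2 members, with Arpc1b, whose CD137 libraries differ (adjusted p = 4.78e-06 and 0.0433 in a Poisson test on the reads of the pair). Cfl1, cofilin-1, which severs old filaments, was at 643 and 669 FPKM in CD137 cells, against 940 FPKM in control cells (log2 fold change -0.52 ± 0.04, adjusted p = 0.00141). Tmsb4x, the main monomer-sequestering thymosin, was at 325 and 317 FPKM in CD137 cells, against 478 FPKM in control cells (log2 fold change -0.58 ± 0.03, adjusted p = 0.00106). Each of these abundant genes lay below the control in both CD137 libraries by much more than the gap between those libraries. Set against the sum of Actb and Actg1, Pfn1 was at 62.3% and 67.4% in CD137 cells and 72.9% in control cells. On the same scale Tmsb4x was at 36.9% and 35.7% in CD137 cells and 38.1% in control cells. Cfl1 was at 73.1% and 75.4% of the actin sum in CD137 cells and 74.7% in control cells.

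The related thymosin Tmsb10 was at 91.9 and 87.7 FPKM in CD137 cells, against 111 FPKM in control cells, and fell to 0.808 of the control (adjusted p = 0.00704). Among the coronins, which recruit or release Arp2/3 and cofilin, 2 fell and 1 rose. Coro1a, the coronin of leukocytes, was at 244 and 252 FPKM in CD137 cells, against 319 FPKM in control cells (log2 fold change -0.36 ± 0.04, adjusted p = 0.00259). Coro1c was at 39.0 and 38.7 FPKM in CD137 cells, against 51.0 FPKM in control cells (log2 fold change -0.38 ± 0.04, adjusted p = 0.00352). Coro1b rose, with 67.8 and 66.8 FPKM in CD137 cells, against 58.1 FPKM in control cells (log2 fold change 0.21 ± 0.04, adjusted p = 0.0148), a call lost without the variance trend (adjusted p = 0.0538). Coro1b shares 432 exonic bases on the same strand with Ptprcap, which was listed at 0.20 FPKM or less in every library. It also shares 45 on the opposite strand with Rps6kb2, at 11.4 and 11.3 FPKM in CD137 cells, against 7.25 FPKM in control cells. Whether reads of these stretches add to the Coro1b values was not tested. Cap1, which helps cofilin to recycle monomers, was at 385 and 383 FPKM in CD137 cells, against 401 FPKM in control cells, and did not pass (adjusted p = 0.156).

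Cfl2, the cofilin best known from muscle, rose while Cfl1 fell. It was at 8.33 and 8.37 FPKM in CD137 cells, against 5.56 FPKM in control cells, from 433, 436 and 294 whole reads (or fragments) recovered from the deposited p-values. The log2 fold change was 0.51 ± 0.07 (adjusted p = 0.00533). Its share of the summed cofilins was still small, 1.28% and 1.23% in CD137 cells and 0.588% in control cells.

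**Figure D2:**
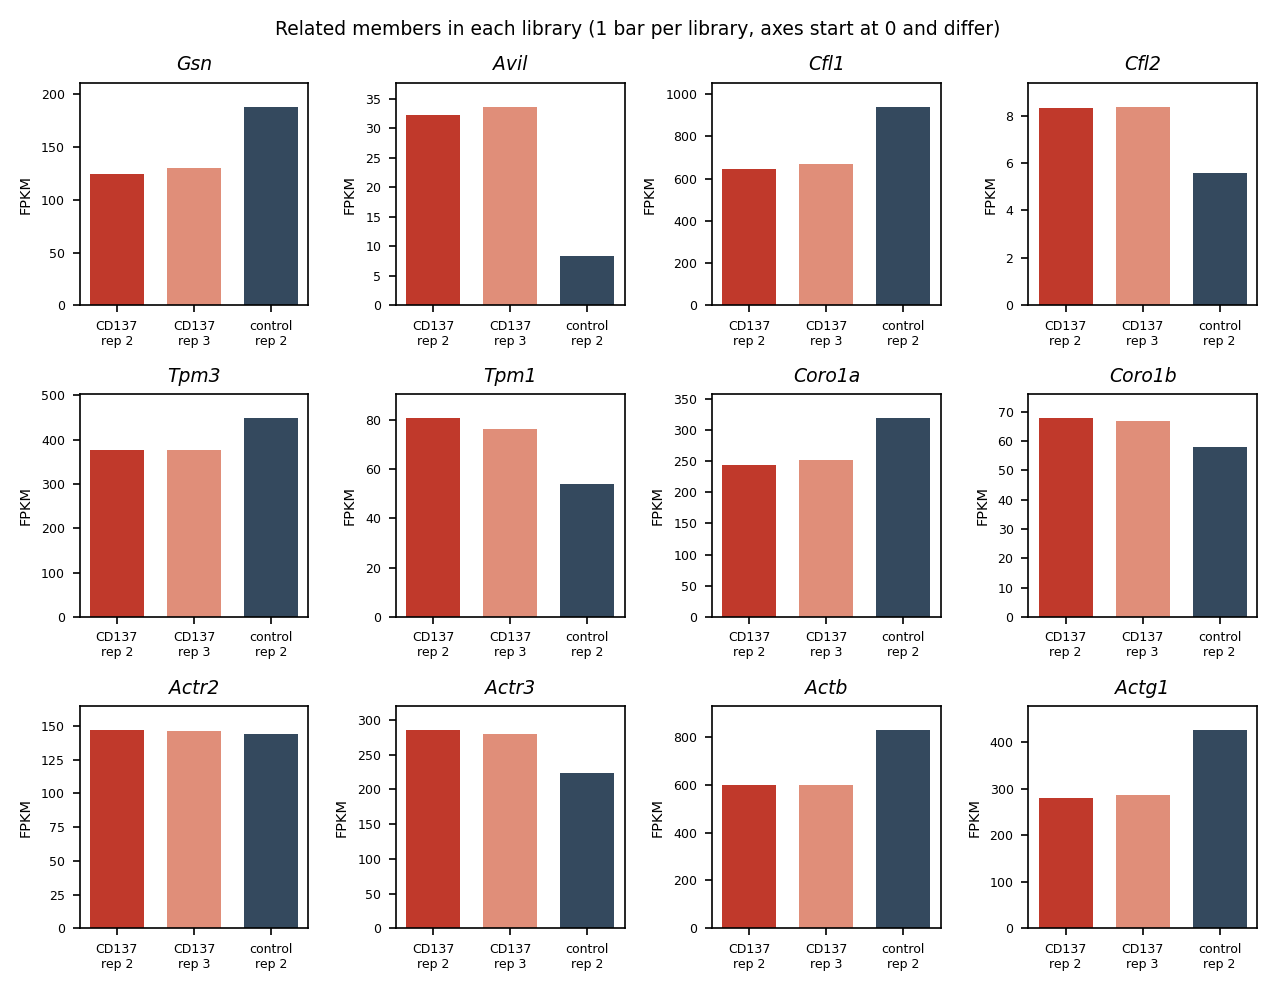
FPKM of 6 pairs of related genes in CD137 replicates 2 and 3 and control replicate 2, with 1 bar per library and axes that start at 0 and differ between panels. Avil, Cfl2, Tpm1, Coro1b and Actr3 are higher in both CD137 libraries than in the control, Gsn, Cfl1, Tpm3 and Coro1a are lower, Actr2 is level, and Actb and Actg1 are both lower.

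The largest increase among the 53 tested actin genes belonged to Avil. It encodes advillin, a calcium-regulated actin-binding protein of the gelsolin family best known from sensory neurons. Avil (chromosome 10 from 127000065 to 127020994) was at 32.3 and 33.6 FPKM in CD137 cells, against 8.36 FPKM in control cells. Both CD137 libraries were close to 4 times the control, a ratio of 3.94. The recovered reads were 1755 and 1830 in CD137 cells and 459 in control cells, with exact Poisson 95% intervals of 1674 to 1839, 1747 to 1916 and 418 to 503 that cover counting error only. The log2 fold change of 1.86 ± 0.06 (adjusted p = 0.000552) was the 8th largest increase among all 10720 expressed genes. Avil shares 165 exonic bases with Tsfm on the opposite strand, and the strand setting of the counting is not given in the sources used here. Tsfm, a mitochondrial translation factor gene, was at 23.9 and 24.6 FPKM in CD137 cells, against 28.8 FPKM in control cells. Whether reads of the shared bases add to the Avil values was not tested.

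Gsn, gelsolin, the family's severing and capping protein that osteoclast podosomes need, was at 124.9 and 129.8 FPKM in CD137 cells, against 188 FPKM in control cells (log2 fold change -0.56 ± 0.04, adjusted p = 0.00148). Avil made up 20.6% of the summed Avil and Gsn level in each CD137 library and 4.25% in the control library. Capg, the macrophage capping protein of the same family and its most abundant member, was at 538 and 536 FPKM in CD137 cells, against 582 FPKM in control cells. It fell by only 0.12 on the log2 scale (adjusted p = 0.0343) and did not pass without the variance trend (adjusted p = 0.161). Relative to the sum of the actins it was therefore higher, 61.1% and 60.4% in CD137 cells and 46.3% in control cells. The subunit genes of the heterodimeric capping protein, Capza1 and Capzb, had ratios of 0.961 and 0.968 and did not pass.

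Filament cross-linkers of the cortex and of stress fibres were lower, and the leukocyte bundler was not. Flna, filamin A, which joins crossing filaments and binds integrins, was at 54.3 and 53.5 FPKM in CD137 cells, against 87.4 FPKM in control cells (log2 fold change -0.69 ± 0.04, adjusted p = 0.00106). Actn4, an alpha-actinin, was at 61.4 and 63.6 FPKM in CD137 cells, against 92.9 FPKM in control cells (log2 fold change -0.57 ± 0.04, adjusted p = 0.00160). Its relative Actn1 was at 11.04 and 11.13 FPKM in CD137 cells, against 15.6 FPKM in control cells (log2 fold change -0.46 ± 0.06, adjusted p = 0.00465). In each of these 3 genes the CD137 libraries agreed closely and lay well below the control. Lcp1, L-plastin, which bundles filaments in leukocyte podosomes and is the most abundant gene of the class, was at 521 and 522 FPKM in CD137 cells, against 532 FPKM in control cells, and did not pass (adjusted p = 0.490). Pls3, its relative T-plastin, had a ratio of 1.02 and did not pass.

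**Figure D3:**
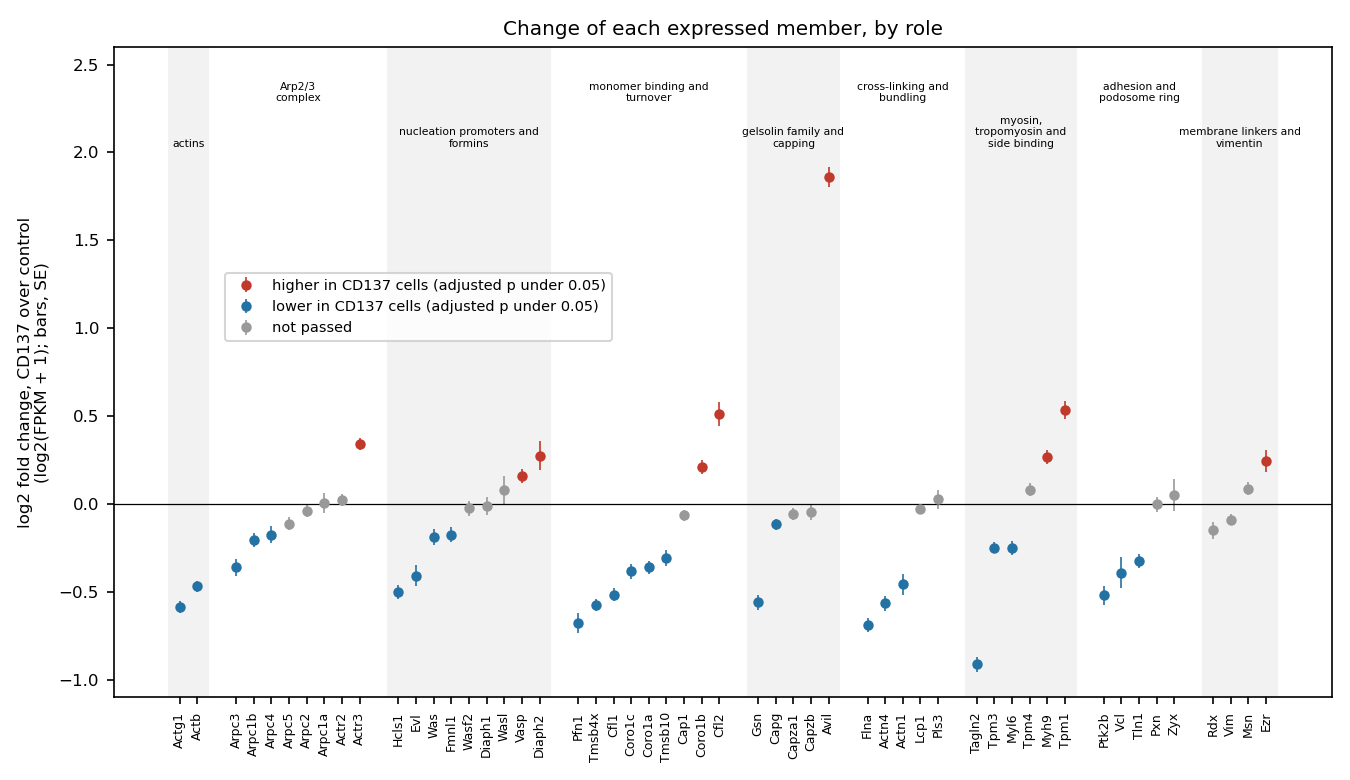
Log2 fold change of CD137 over control cells on the log2(FPKM + 1) scale with SE bars, for the 53 expressed genes ordered by role. Red points rose, blue points fell and grey points did not pass an adjusted p of 0.05. Avil at 1.86 and Tagln2 at -0.91 are the extremes, and the actins, profilin, thymosins, filamin and alpha-actinins are all blue.

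Among proteins that decorate filaments, Tagln2 had the largest decrease of all 53 genes. Tagln2, transgelin-2, which binds along actin filaments (chromosome 1 from 172500246 to 172507375), was at 73.7 and 71.0 FPKM in CD137 cells, against 137 FPKM in control cells. The log2 fold change was -0.91 ± 0.04 (adjusted p = 0.000808), and 52 expressed genes of the table had a larger decrease. The tropomyosins, which line filaments and gate access to them, were split by gene. Tpm1 rose, with 80.7 and 76.2 FPKM in CD137 cells, against 53.9 FPKM in control cells (log2 fold change 0.53 ± 0.05, adjusted p = 0.00227). Tpm3, the most abundant of them, fell, with 377 FPKM in both CD137 libraries, against 448 FPKM in control cells (log2 fold change -0.25 ± 0.03, adjusted p = 0.00440). Tpm4, the tropomyosin linked to osteoclast adhesion structures, was at 147 and 151 FPKM in CD137 cells, against 141 FPKM in control cells, and did not pass (adjusted p = 0.143). Tpm1 made up 13.3% and 12.6% of the summed tropomyosins in CD137 cells and 8.38% in control cells. These genes have many isoforms, 25 transcripts for Tpm1 and 13 for Tpm3 in the table, which 1 gene-level value cannot separate.

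The subunits of non-muscle myosin II also moved apart. Myh9, its heavy chain, was at 84.1 and 86.6 FPKM in CD137 cells, against 70.7 FPKM in control cells (log2 fold change 0.27 ± 0.04, adjusted p = 0.00801). Myl6, an essential light chain, was at 184 and 192 FPKM in CD137 cells, against 224 FPKM in control cells (log2 fold change -0.25 ± 0.04, adjusted p = 0.00890).

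Ring and adhesion genes of podosomes were lower or level. Of 5 expressed genes 3 fell, 0 rose and 2 did not pass. Tln1, talin, which activates integrins and ties them to actin, was at 74.5 and 73.9 FPKM in CD137 cells, against 93.1 FPKM in control cells (log2 fold change -0.32 ± 0.04, adjusted p = 0.00397). Vcl, vinculin, which binds talin under tension, was at 7.34 and 6.54 FPKM in CD137 cells, against 9.40 FPKM in control cells (log2 fold change -0.39 ± 0.09, adjusted p = 0.0226). Vcl shares 2090 exonic bases with Ap3m1 on the opposite strand, which was at 36.2 and 36.9 FPKM in CD137 cells and 38.0 FPKM in control cells. Ptk2b, the kinase Pyk2, which acts downstream of integrins in the osteoclast sealing zone, was at 29.3 and 28.0 FPKM in CD137 cells, against 41.4 FPKM in control cells (log2 fold change -0.52 ± 0.05, adjusted p = 0.00254). The adaptor Pxn, paxillin, was at 43.7 and 43.4 FPKM in CD137 cells, against 43.6 FPKM in control cells, so the control lay between the CD137 libraries. Zyx, zyxin, had 15.7 and 17.98 FPKM in CD137 cells, against 16.2 FPKM in control cells, and neither gene passed.

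Of the 4 expressed genes of membrane linkers and intermediate filaments, 1 rose and 3 did not pass. Ezr, ezrin, rose, with 11.6 and 11.9 FPKM in CD137 cells, against 9.78 FPKM in control cells (log2 fold change 0.24 ± 0.06, adjusted p = 0.0310). Msn, moesin, the main protein of this family in leukocytes, was at 131 and 129 FPKM in CD137 cells, against 122 FPKM in control cells, and did not pass (adjusted p = 0.119). Rdx, radixin, had a ratio of 0.8997 and did not pass (adjusted p = 0.0622). Vim, the intermediate filament protein vimentin, is the most abundant gene of this role. It was at 731 and 744 FPKM in CD137 cells, against 784 FPKM in control cells. Its ratio was 0.940, and it did not pass (adjusted p = 0.0749).

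The other 6 genes were close to silent and were not tested. Src, the tyrosine kinase that osteoclasts need to resorb bone, was at 0.35 and 0.22 FPKM in CD137 cells, against 0.03 FPKM in control cells, from 24 and 15 reads against 2. The exact Poisson 95% intervals, which cover counting error in these single libraries only, were 15.4 to 35.7 and 8.40 to 24.7 reads in CD137 cells and 0.242 to 7.22 reads in control cells; no difference between the groups was tested. Fscn1, the bundler fascin, was at 0.60 and 0.57 FPKM in CD137 cells, against 0.36 FPKM in control cells, from 28 and 27 reads against 17. Cttn, cortactin, was at 0.30 and 0.13 FPKM in CD137 cells, against 0.07 FPKM in control cells, from 16 and 7 reads against 4. Vil1, villin, an epithelial protein of the gelsolin family, was at 0.13 and 0.02 FPKM in CD137 cells, against 0.02 FPKM in control cells, from 7 and 1 reads against 1. Myl9, a regulatory light chain of smooth and non-muscle myosin, had 1 and 3 reads in CD137 cells and 3 in control cells. Marcks, a membrane-bound actin cross-linker, had 1 and 3 reads in CD137 cells and 1 in control cells. CD137 replicate 2 had the highest level of Src, Fscn1, Cttn and Vil1, though Fscn1 was nearly level in the CD137 libraries. Myl9 and Marcks were lower in CD137 replicate 2 than in CD137 replicate 3, at 1 read against 3 for each gene. The library with the most epithelial marker RNA was also CD137 replicate 2. Krt8 was at 2.6 and 0.66 FPKM in CD137 replicates 2 and 3 and 0.25 FPKM in the control. In the same order Krt18 was at 2.59, 0.37 and 0.32 FPKM, Epcam at 0.44, 0.08 and 0.03 FPKM and Cdh1 at 0.65, 0.06 and 0.07 FPKM. The part of this RNA in the values of the 6 genes was not tested.

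**Figure D4:**
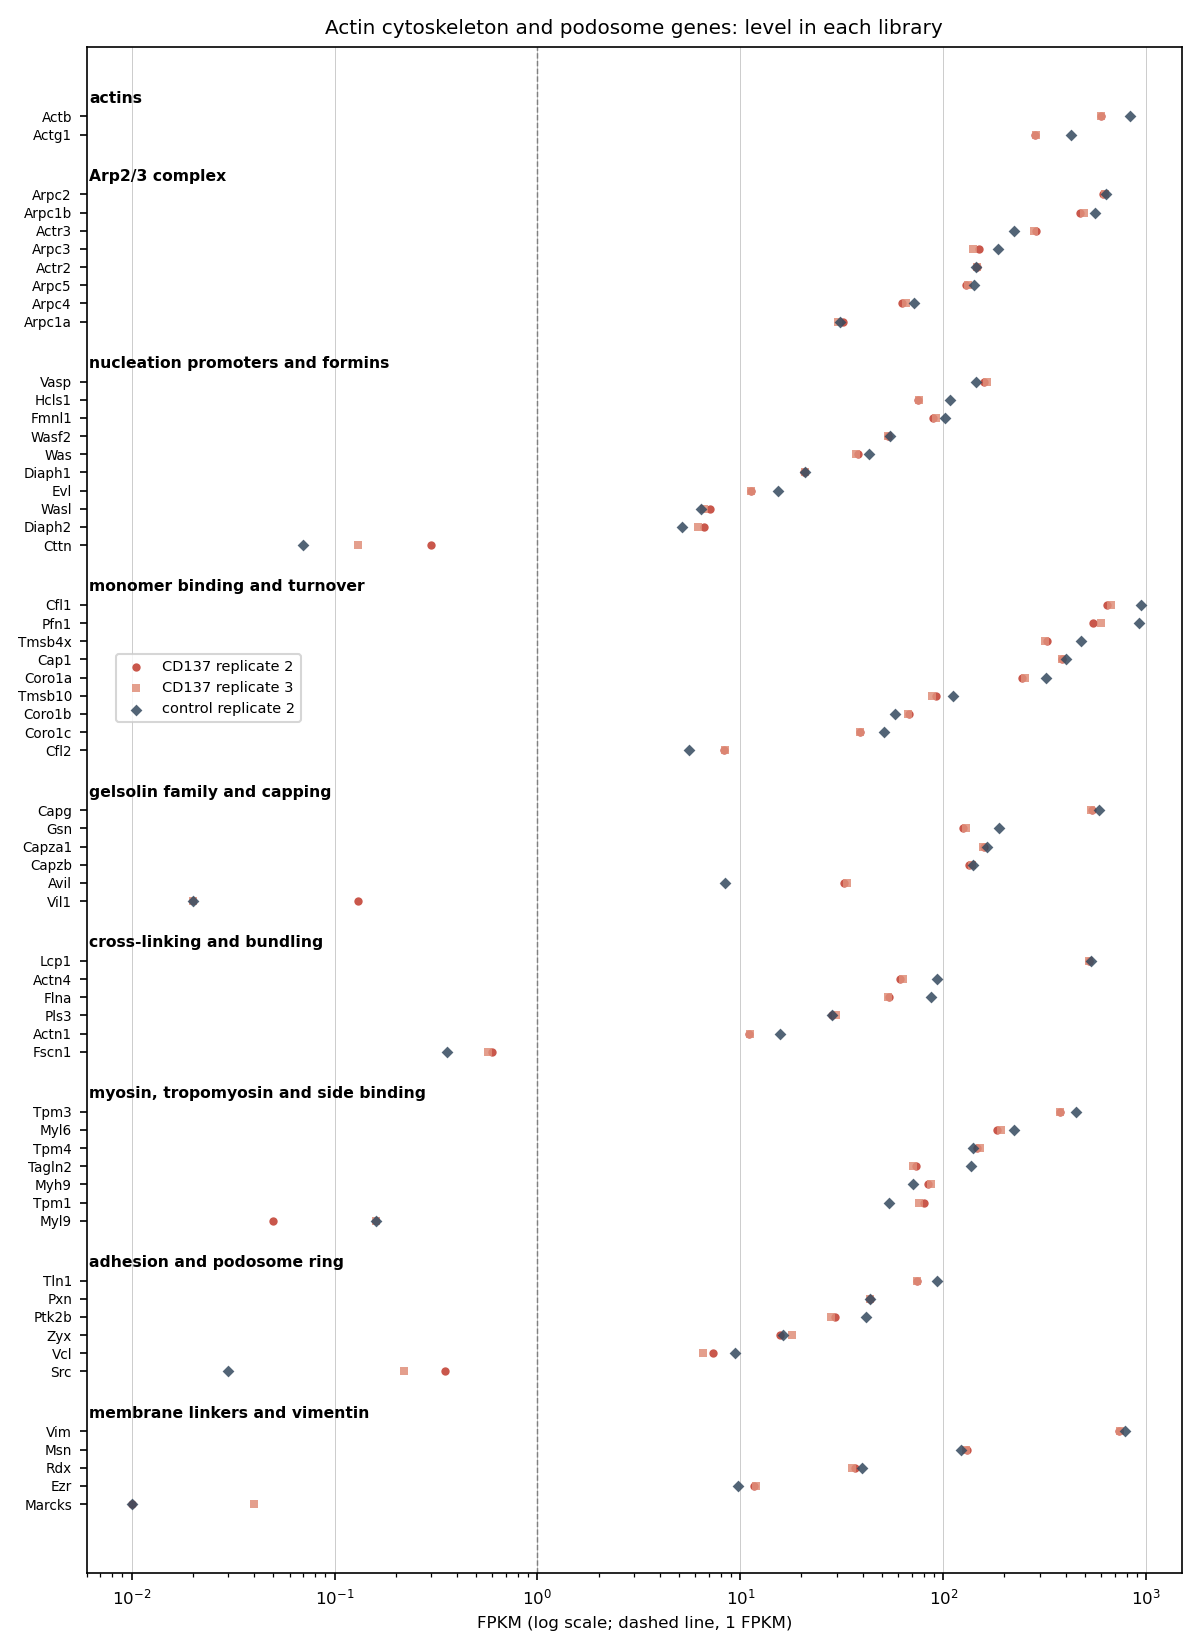
FPKM on a log axis of all 59 genes, ordered by role and by level in the control; red circles and orange squares are CD137 replicates 2 and 3 and dark blue diamonds are the control. The dashed line marks 1 FPKM, below which 6 genes lie, and the CD137 symbols mostly overlap each other to the left of the control for the abundant genes.

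In the list of podosome and adhesion scaffolds outside the 59 genes, 4 of 23 expressed genes rose (17.4%), 3 fell (13%) and 16 did not pass, both shares below those of all expressed genes. Dbnl, an actin-binding adaptor, fell to 0.671 of the control (adjusted p = 0.00192). Wdr1, which works with cofilin in disassembly, fell to 0.779 (adjusted p = 0.00351). Fermt3, the kindlin of blood cells, fell to 0.833 (adjusted p = 0.0103). Pstpip2, an F-BAR protein of macrophages, rose 1.51-fold (adjusted p = 0.00188). The podosome scaffolds Sh3pxd2a and Sh3pxd2b did not pass. Of the 157 expressed genes that the table annotates with the KEGG term for regulation of the actin cytoskeleton and that are not among the 59, 47 rose (29.9%) and 23 fell (14.6%), with a median log2 fold change of 0.05; these shares lie near the 24.4% and 18.2% of all expressed genes.

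Library by library, the Poisson test in the authors' deposited table gave an adjusted p under 0.05 to 42 of the 53 genes for CD137 replicate 2 over control (54.9% of expressed genes), 10 higher and 32 lower. For CD137 replicate 3 over control it gave 43 (55.1%), 11 higher and 32 lower. Between the CD137 libraries it gave 2 (1.91%). Such a test compares libraries, not conditions.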

How the data were processed

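Sample titles gave the groups and replicate numbers. Each gene has 1 FPKM value per library as deposited by the authors, per the file headers. The submitters' processing notes list HISAT2, Bowtie2, RSEM and mm10 but not what each did; the sources used here give neither strand setting nor read length. The table lists 21990 genes, of which 5987 have no value; 1 broken line was left out. The deposited log2 ratios, p-values and adjusted p-values (a score that exceeds 1 for some genes) come from a Poisson test on pairs of libraries, per the file headers.

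The test was limma 3.58.1 in R 4.3.3, with the prior variance fitted as a trend on mean level, on log2(FPKM + 1), over the 10720 genes with at least 1 FPKM in some library, Benjamini-Hochberg adjusted over all of them at 0.05. It has 1 residual degree of freedom. The log2(FPKM + 1) scale understates changes of low genes. The members, lists and tests were chosen with earlier results of these data known. In particular, an earlier analysis had fitted all genes with a value, found 0 calls, tried further fits and then turned to expressed genes; that restriction was kept here knowing this, so the adjusted p-values do not account for the choice among fits. The 100 FPKM class and the recovered reads were added after values were seen. All 59 genes are named; values in every library are given for those past the threshold and changed by at least 0.32 on the log2 scale, for the most abundant of each role, for those below 1 FPKM and for some others; of each other list, the called genes with the 4 largest changes are named. A further gene list is not reported here.

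Whole reads behind 36 members, 1 to 17672 per library, were solved from the deposited FPKM and p-values. This gave depths of 0.983 and 0.988 of the control for CD137 replicates 2 and 3. Exon overlaps come from GENCODE M21 (mm10). FPKM is relative to the library total; 7.72 to 8.00% of it lay in the 10 highest genes. Alternatives tried were other filters, pseudocounts and scalings, no trend, and leaving out either CD137 library.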

Additional observations from a re-analysis of the deposited data

How the results depend on the processing

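Without the filter on low values, limma called 0 of 16003 genes higher and 0 lower, and so 0 members higher and 0 lower; 5281 genes and 33 of the 53 expressed members then had an unadjusted p under 0.05, and the smallest adjusted p was 0.0802. Every call in the report therefore needs the restriction to expressed genes. The same 35 members were called with a filter of 5 FPKM and with pseudocounts of 0.1 and 0.5. Without a variance trend 27 of the 35 passed, and the 8 lost were Arpc1b, Arpc4, Capg, Coro1b, Diaph2, Fmnl1, Vasp and Was. Under median centring and rescaling to a fixed sum, 38 members passed, the 3 added being Arpc5, Rdx and Vim, all lower. The median log2 fold change of the members was then -0.14 and -0.13, and Arpc1a, which did not pass, changed sign (-0.0163 and -0.0046). That median was -0.1188 without CD137 replicate 2 and -0.1237 without CD137 replicate 3, values with no test, the members lower by at least 0.32 on the log2 scale numbered 15 to 19, and no called member changed direction. No paired analysis was possible because the groups share only replicate number 2. The single control library could not be left out. Depth limits the members below 1 FPKM, which rest on 1 to 28 reads. Counting the CArG box at the most upstream start alone, chosen after seeing the data, left 5 of 6 members with a box.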

Other observations

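Tubulins and microtubule genes, the other main cytoskeletal polymer system, were mostly lower in CD137 cells as well. Of 15 expressed genes 9 fell (60%), 0 rose and 6 did not pass, with a median log2 fold change of -0.21 in the limma fit of expressed genes. Among all expressed genes 18.2% fell and 24.4% rose. Tuba1b, the most abundant alpha-tubulin gene, was at 317 and 326 FPKM in CD137 cells, against 626 FPKM in control cells (log2 fold change -0.96 ± 0.03, adjusted p = 0.000552). Tubb5, a beta-tubulin, was at 273 and 272 FPKM in CD137 cells, against 459 FPKM in control cells (log2 fold change -0.75 ± 0.03, adjusted p = 0.000780). Stmn1, stathmin, which binds tubulin dimers, fell to 0.609 of the control, and Tubb6 fell to 0.687. Tuba1c was at 83.0 and 84.6 FPKM in CD137 cells, against 81.7 FPKM in control cells, and did not pass. Tubulin genes have near-identical copies, and how their reads were divided is not known.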
